A study of Mus musculus with 10 samples.

Results

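The 7 genes described here are Klf1, Hemgn, Slc4a1, Epb42, Ank1, Rhag and Ermap, which were taken by their symbols from the 15686 genes of the authors' expression matrix and followed in the count tables of 55487 genes. All 7 passed the filter on low counts that left 22596 genes for testing. They were measured by nuclear RNA-seq, which counts RNA from isolated nuclei, in HM-1 mouse embryonic stem cells and in 4 populations made from them by differentiation in serum, with 2 libraries for each of these 5 stages. ES cells were kept in LIF at 1000 U/ml. HB (haemangioblast) cells were FLK1+ cells sorted from embryoid bodies after 3 days. These cells were then grown in blast culture for 2.5 days with VEGF at 5 ng/ml, IL-6 at 10 ng/ml and 20% medium conditioned by D4T endothelial cells, and sorted into HE1 (first haemogenic endothelium, KIT+ TIE2+ CD41-), HE2 (second haemogenic endothelium, KIT+ TIE2+ CD41+) and HP (haematopoietic progenitors, KIT+ TIE2- CD41+). All stages come from 1 cell line grown in culture, so the spread between libraries is that between cultures of this line.

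Red blood cells are made under a small set of nuclear factors. KLF1 is a zinc finger factor that binds CACCC boxes in globin and many other erythroid genes, and it acts beside GATA1, which binds GATA motifs. The products of the remaining genes are mostly parts of the red cell surface, where the anion exchanger band 3 (Slc4a1) is tied to the spectrin skeleton through ankyrin (Ank1) and protein 4.2 (Epb42), and where the Rh-associated glycoprotein (Rhag) is a channel protein of the same complex. Ermap is a red cell adhesion protein of the butyrophilin family, and Hemgn (hemogen) is a nuclear protein of blood-forming cells.

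The genes lie at separate loci of mm10. Klf1 (ENSMUSG00000054191) spans chr8:84901928-84905295 on the plus strand, and Ank1 (ENSMUSG00000031543) spans chr8:22974844-23150497 on the plus strand. Hemgn (ENSMUSG00000028332) lies at chr4:46393989-46413506 and Ermap (ENSMUSG00000028644) at chr4:119175457-119190011, both on the minus strand. Slc4a1 (ENSMUSG00000006574) lies at chr11:102348824-102366203 and Epb42 (ENSMUSG00000023216) at chr2:121017891-121037072, both on the minus strand, and Rhag (ENSMUSG00000023926) lies at chr17:40811126-40840754 on the plus strand. No exon of these genes overlaps an exon of another gene on the same strand, and counting used the strand.

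Because the 7 genes moved together, their promoters were searched for the GATA motifs AGATAA and TGATAA on both strands. RefSeq sequences of GRCm38.p6, of 250 bases before the start, were at hand for Klf1, Hemgn, Epb42, Rhag and Ermap. All 5 of 5 held AGATAA or TGATAA, against 16.6% of all promoters of this length. The stretches of Klf1, Rhag, Ermap and Epb42 that lie before any annotated exon of the gene are shown to place the motif, which is in capitals and reads TTATCA or TTATCT where the motif is on the opposite strand.
Klf1, chr8:84901732-84901927, plus strand: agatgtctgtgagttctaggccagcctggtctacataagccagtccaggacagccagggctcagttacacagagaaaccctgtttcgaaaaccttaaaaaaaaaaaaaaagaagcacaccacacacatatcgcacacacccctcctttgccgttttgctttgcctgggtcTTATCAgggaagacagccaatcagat
Rhag, chr17:40810899-40811125, plus strand: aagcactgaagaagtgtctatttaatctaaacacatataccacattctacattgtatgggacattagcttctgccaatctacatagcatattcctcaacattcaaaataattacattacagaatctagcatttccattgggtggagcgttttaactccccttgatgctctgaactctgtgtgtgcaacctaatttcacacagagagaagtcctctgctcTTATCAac
Ermap, chr4:119190012-119190245, minus strand: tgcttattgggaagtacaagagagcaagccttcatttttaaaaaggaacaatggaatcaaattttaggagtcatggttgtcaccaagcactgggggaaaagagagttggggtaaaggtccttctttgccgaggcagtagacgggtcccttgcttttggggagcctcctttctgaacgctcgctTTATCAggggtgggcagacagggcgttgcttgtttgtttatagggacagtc
Epb42, chr2:121037073-121037127, minus strand: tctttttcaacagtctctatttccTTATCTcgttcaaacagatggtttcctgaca

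The motif began 80 bases before the RefSeq start in Klf1, 31 bases before it in Rhag, 67 in Ermap and 226 in Epb42. In Hemgn it began 13 bases before the start, in a stretch that is an exon of the gene in the count tables and is not shown. The longer KLF motif CCNCNCCC was found in 1 of 5 promoters (Hemgn) against 45.9% of all promoters. Its 4 matches in Hemgn overlap in a run of a single base and are not a CACCC box. The shorter CACCC was not counted over promoters. It can be read in the shown stretch of Klf1 and, on the opposite strand, in those of Rhag and Ermap. The E box CANNTG was found in 3 of 5 against 66.2%, and the RUNX motif TGTGGT in 2 of 5 (Klf1 and Rhag) against 14.0%. These matches describe the letters of the windows, and binding was not measured in the data used here.

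The libraries held 24920434 to 58782055 counts, and a floor of 3 counts corresponded to 0.0532 to 0.126 CPM, which are counts scaled to the TMM-adjusted size of a library. This floor covers counting error only. The genes of the sorted antigens followed the gates in part. Tek, which encodes TIE2, had a mean of 429 CPM in HE1, 222 CPM in HE2 and 62.8 CPM in HP. Itga2b, which encodes CD41, had 177 CPM in HE1, 487 CPM in HE2 and 383 CPM in HP, so its RNA was present in the CD41- gate. HE1 replicate 2 stood apart, as its 8 ES cell markers summed to 103 CPM, whereas the other 5 libraries of HE1, HE2 and HP held 2.38 to 9.21 CPM and HB held 425 and 443 CPM. The part of this in the results was not tested. Changes of single genes were computed again without each library of the comparison, and values that moved are given with the gene.

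To describe the onset of these genes, their levels were followed through the stages. The 7 genes summed to 2.18 to 3.01 CPM in the ES and HB libraries, to 38.1 and 22.9 CPM in HE1, to 129 and 72.1 CPM in HE2, and to 260 and 136 CPM in HP. The mean of each gene in HE1 was 9.31% to 21.7% of its mean in HP, and the mean in HE2 was 41.1% to 56.3% of that in HP. A mean of at least 9 CPM, a threshold which the study used to call a gene expressed, was met by 1 of 7 genes in HE1 (Slc4a1), 4 in HE2 and 6 in HP on the TMM scale used here. In the authors' matrix, which is scaled differently, it was met by 2 in HE1 (also Ank1), 4 in HE2 and 6 in HP. In sorted bulk cells, fewer cells of a type and less RNA per cell cannot be told apart, so a rise may reflect either.

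**Figure D1:**
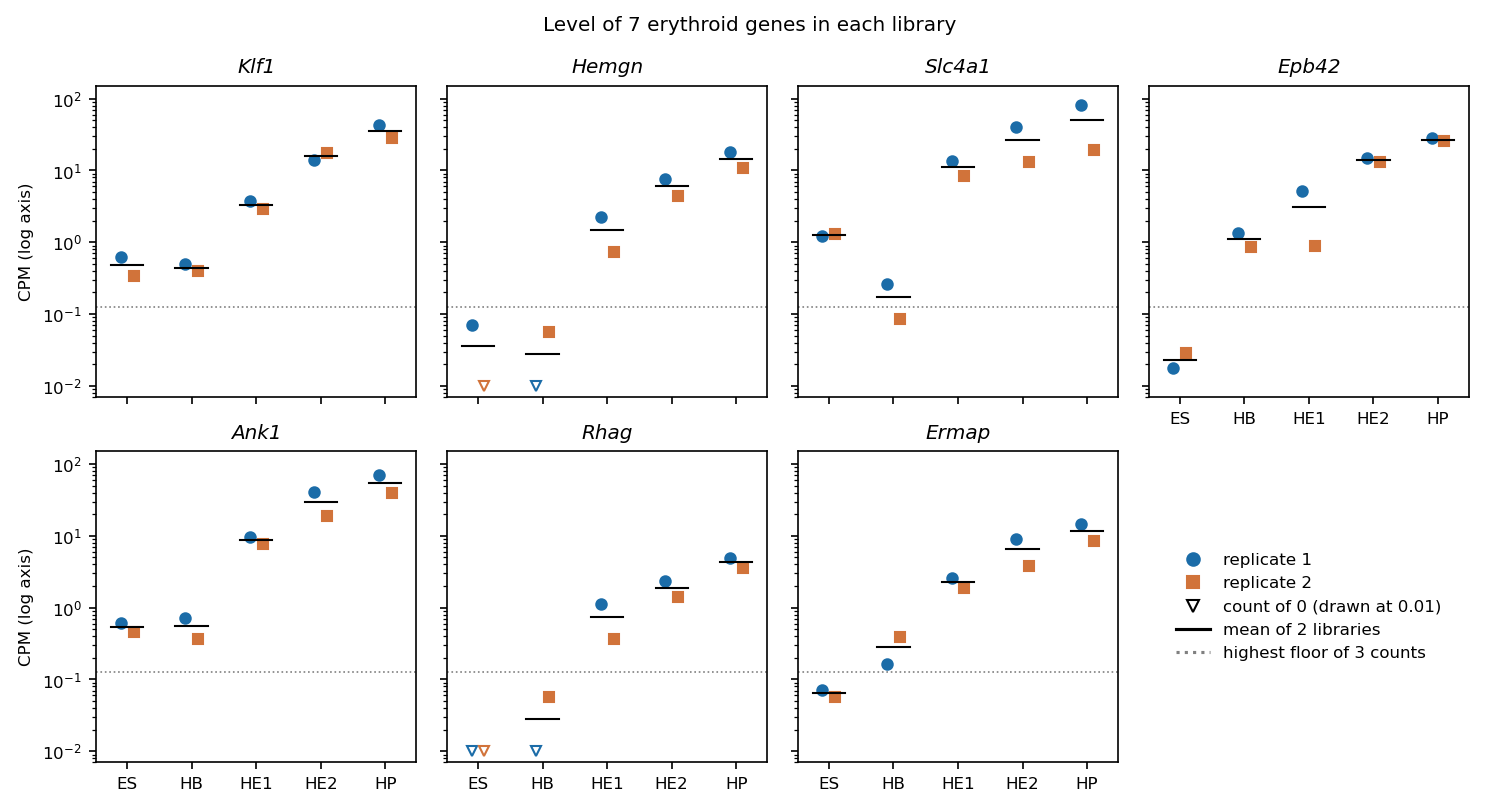
Level of each of the 7 genes, in CPM on a log axis, in each of the 10 libraries, with replicate 1 as circles, replicate 2 as squares, the mean as a line and counts of 0 as open triangles at 0.01. All 7 genes sit higher in both HP libraries than in both HE1 libraries, and the points of Slc4a1 spread most in HP, from 19.2 to 82.4 CPM.

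Klf1, the transcription factor of the group, was low before the haemogenic endothelium. It had 0.620 and 0.344 CPM in ES, 0.496 and 0.394 CPM in HB, 3.70 and 2.87 CPM in HE1, 13.9 and 17.6 CPM in HE2, and 42.6 and 28.0 CPM in HP (replicates 1 and 2). From HB on, the libraries of each stage lay above those of the stage before with no overlap. Its log2 fold change was 2.88 ± 0.37 (SE) from HB to HE1 (adjusted p = 0.000334), 2.26 ± 0.31 from HE1 to HE2 (adjusted p = 0.00261) and 3.43 ± 0.32 from HE1 to HP (adjusted p = 0.000124; edgeR quasi-likelihood test). These 3 calls were kept whichever library was left out.

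Hemgn, the other nuclear protein, was at the limit of detection in ES and HB. It had 0.0709 and 0 CPM in ES, 0 and 0.0563 CPM in HB, 2.27 and 0.726 CPM in HE1, 7.55 and 4.41 CPM in HE2, and 18.3 and 10.8 CPM in HP. The libraries of HE1, HE2 and HP did not overlap. HB held 2 counts against 76 counts in HE1, a ratio of 46.2 with a counting interval of 12.4 to 389 (95%, exact) that does not cover the spread between libraries. The fitted log2 fold change was 5.45 ± 1.02 (adjusted p = 0.00291, edgeR) and ranged from 4.39 to 8.66 when 1 library was left out. From HE1 to HP Hemgn rose by 3.30 ± 0.63 on the log2 scale (adjusted p = 0.00441, edgeR), and by 4.34 without HE1 replicate 1 and 2.68 without HE1 replicate 2. From HE1 to HE2 the difference was 2.02 ± 0.61 and was just outside the threshold (adjusted p = 0.0531, edgeR). It passed with limma-voom (adjusted p = 0.0444) and with the replicate number as a block. The replicate numbers did not pair libraries across stages.

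Slc4a1, the anion exchanger and main protein of the red cell membrane, differed in its course. It had 1.21 and 1.29 CPM in ES, 0.264 and 0.0845 CPM in HB, 13.7 and 8.38 CPM in HE1, 40.7 and 13.0 CPM in HE2, and 82.4 and 19.2 CPM in HP. Both ES libraries were above both HB libraries. The libraries of HE1 and HE2 overlapped, as did those of HE2 and HP, and replicate 1 was the higher library in HE1, HE2 and HP. Slc4a1 rose by 6.0 ± 0.96 on the log2 scale from HB to HE1 (adjusted p = 0.00119, edgeR) and by 2.21 ± 0.65 from HE1 to HP (adjusted p = 0.0323). The former ranged from 5.32 without HB replicate 2 to 6.90 without HB replicate 1. The latter rested on HP replicate 1 and on HE1 replicate 2, with a log2 fold change of 0.81 (adjusted p = 0.414) without the first and 1.90 (adjusted p = 0.191) without the second, and it was 2.92 without HP replicate 2. With limma-voom the adjusted p was 0.0546 from HB to HE1 and 0.0785 from HE1 to HP.

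Ank1, the ankyrin that links band 3 to spectrin, had 0.620 and 0.459 CPM in ES, 0.727 and 0.366 CPM in HB, 9.54 and 7.75 CPM in HE1, 40.7 and 18.9 CPM in HE2, and 69.7 and 39.8 CPM in HP. HE1 and HE2 did not overlap, but the higher HE2 library was just above the lower HP library. Ank1 rose by 4.0 ± 0.49 on the log2 scale from HB to HE1 (adjusted p = 0.000245, edgeR), by 1.78 ± 0.39 from HE1 to HE2 (adjusted p = 0.0203) and by 2.66 ± 0.40 from HE1 to HP (adjusted p = 0.00126). The change from HE1 to HE2 did not pass without HE1 replicate 2 (1.64, adjusted p = 0.119) and was 1.14 without HE2 replicate 1.

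Epb42, protein 4.2 of the same complex, was the member with HB levels closest to those in HE1. It had 0.0177 and 0.0287 CPM in ES, 1.35 and 0.873 CPM in HB, 5.21 and 0.891 CPM in HE1, 15.1 and 12.9 CPM in HE2, and 27.9 and 26.0 CPM in HP. HE1 replicate 2 lay between the HB libraries, and the 2 libraries of HE1 differed more than those of any later stage. From HB to HE1 the log2 fold change was 1.44 ± 0.61 and did not pass (adjusted p = 0.0958, edgeR). It was -0.35 without HE1 replicate 1 (adjusted p = 0.450) and 2.24 without HE1 replicate 2 (adjusted p = 0.000734). Epb42 rose by 2.22 ± 0.57 from HE1 to HE2 (adjusted p = 0.0341) and by 3.16 ± 0.58 from HE1 to HP (adjusted p = 0.00373). Both sizes depended on the HE1 library, being 3.99 and 4.94 without HE1 replicate 1 and 1.42 and 2.37 without HE1 replicate 2. The change from HE1 to HE2 did not pass without HE2 replicate 2 (2.33, adjusted p = 0.126).

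Rhag, which carries the Rh proteins at the membrane, had the lowest mean level per kilobase of the 7 genes in ES, HE1, HE2 and HP, whereas in HB, where both had 2 counts, Hemgn was the lowest. It had no count in either ES library, 0 and 0.0563 CPM in HB, 1.14 and 0.363 CPM in HE1, 2.35 and 1.40 CPM in HE2, and 4.97 and 3.56 CPM in HP. The stages from HE1 to HP did not overlap. HB held 2 counts against 38 in HE1, a ratio of 23.1 with a counting interval of 5.97 to 198. The fitted log2 fold change was 4.46 ± 1.00 (adjusted p = 0.00881, edgeR), it ranged from 3.40 to 7.66 when 1 library was left out, and it did not pass without HB replicate 1 (adjusted p = 0.0515). Against ES the level in HE1 was at least 21.4-fold higher when ES was set to 3 counts over the group. Rhag rose by 2.53 ± 0.65 on the log2 scale from HE1 to HP (adjusted p = 0.0209, edgeR), and the change was 1.91 without HE1 replicate 2 (adjusted p = 0.0897), 2.28 without HP replicate 1 (adjusted p = 0.110) and 3.57 without HE1 replicate 1.

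Ermap, the adhesion protein, had 0.0709 and 0.0573 CPM in ES, 0.165 and 0.394 CPM in HB, 2.61 and 1.88 CPM in HE1, 9.17 and 3.84 CPM in HE2, and 14.6 and 8.45 CPM in HP. HE1 lay apart from HB and from HE2, whereas HE2 and HP overlapped. Ermap rose by 2.96 ± 0.58 on the log2 scale from HB to HE1 (adjusted p = 0.00383, edgeR) and by 2.37 ± 0.49 from HE1 to HP (adjusted p = 0.00673). The former was 3.69 without HB replicate 2. The latter had an adjusted p of 0.0502 without HE1 replicate 2 and 0.0590 without HP replicate 1.

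As a group, 6 of the 7 genes were called higher in HE1 than in HB, where a call needed both a minimum change of 2-fold and an adjusted p under 0.05. The share of all tested genes called higher in that comparison was 12.7%. The median log2 fold change of the 7 genes was 4.0, against 0.04 for all tested genes. Both HE1 libraries were above both HB libraries for 6 of 7 genes, all but Epb42, and for 32.9% of all genes.

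The next step of the sort, from HE1 to HE2, gave 3 of 7 genes called higher (Klf1, Epb42 and Ank1) against 3.26% of all tested genes. For Hemgn, Ermap, Slc4a1 and Rhag the log2 fold changes were 2.02, 1.54, 1.29 and 1.34, with adjusted p of 0.0531, 0.0586, 0.172 and 0.167 by edgeR. The median of the 7 genes was 1.78 and that of all genes was -0.08. DESeq2 called 5 of the 7 genes higher, and 789 of all 22596 tested genes. With edgeR and no filter on low counts, 6 of the 7 genes were called, and 954 of all 39019 genes were called higher. The number called also moved when 1 library was left out. Without HE1 replicate 1 the log2 fold changes of Hemgn and Rhag were 3.06 and 2.38. Both HE2 libraries were above both HE1 libraries for 6 of 7 genes, all but Slc4a1, against 28.8% of all genes.

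All 7 genes rose from HE1 to HP, where 5.35% of all tested genes were called higher, and the log2 fold changes lay between 2.21 for Slc4a1 and 3.43 for Klf1. The median was 2.66, and that of all genes was -0.02. No HP library overlapped an HE1 library for any of the 7 genes, which held for 28.7% of all genes. With either HE1 replicate 2 or HP replicate 1 left out, 4 of 7 were called, namely Klf1, Hemgn, Epb42 and Ank1.

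Between HE2 and HP, 0 of 7 genes were called and 0.0% of all tested genes were called higher. The estimates were all positive, from 0.83 for Ermap to 1.28 for Hemgn, and the ratio of the mean levels in HP and HE2 was 1.78 to 2.43. The log2 fold change of Slc4a1 was 0.92 and turned to -0.49 without HP replicate 1. Klf1, Hemgn and Ank1 had an unadjusted p under 0.05, which 2.97% of all tested genes had in this direction. DESeq2 called 1 member (Klf1, adjusted p = 0.0101), edgeR without the filter called 2 (Klf1 and Hemgn) and limma-voom called 0. Of all genes, these called higher 107 of 22596, 145 of 39019 and 35 of 22596. The 95% interval of the Klf1 difference was 0.53 to 1.80 on the log2 scale and that of Slc4a1 was -0.46 to 2.30. For 4 of 7 genes, namely Klf1, Hemgn, Epb42 and Rhag, both HP libraries were above both HE2 libraries, against 15.8% of all genes. These 4 genes rose without overlap at both steps, from HE1 to HE2 and from HE2 to HP, as did 5.32% of all genes.

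Whether the change from HE1 to HE2 was larger than that from HE2 to HP was tested by subtracting the latter from the former on the log2 scale. The difference was positive for all 7 genes, with a median of 0.73 against -0.02 for all genes, and 0 of 7 were called (0.0575% of all genes were). Klf1 was the only member with an unadjusted p under 0.05 (difference 1.10 ± 0.49, adjusted p = 0.529, edgeR), against 4.49% of all genes in this direction. DESeq2 and limma-voom called 0 of 7. The signs of Hemgn, Slc4a1, Ank1, Rhag and Ermap turned when HE2 replicate 1 was left out, and Epb42 was called without HE1 replicate 1 (difference 3.04, adjusted p = 0.0198).

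**Figure D2:**
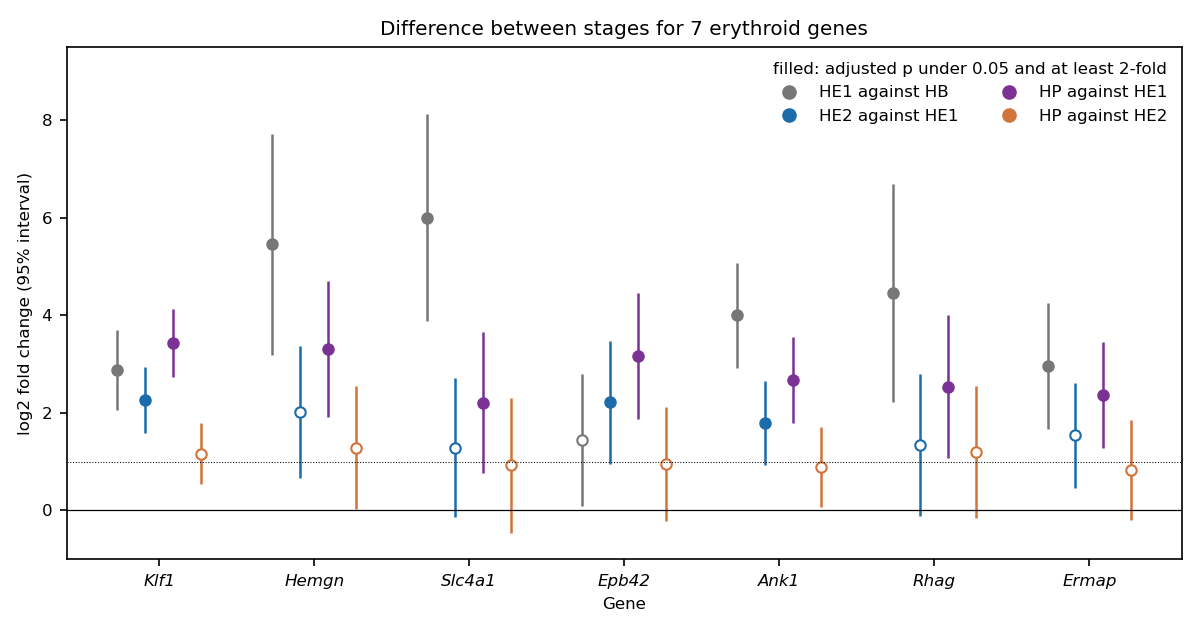
Log2 fold change with its 95% interval for each of the 7 genes in 4 comparisons of stages, with filled points for genes called at an adjusted p under 0.05 and at least 2-fold. The HP against HE1 points are all filled, 3 of 7 are filled for HE2 against HE1, and none for HP against HE2, where the points lie between 0.83 and 1.28.

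Levels were compared between genes per kilobase of exon. In HP the order was Klf1 (23.0 ± 6.70 CPM per kb, SD, n = 2), Slc4a1 (10.4 ± 9.14), Hemgn (5.80 ± 2.11), Epb42 (4.97 ± 0.248), Ank1 (4.05 ± 1.56), Ermap (2.18 ± 0.826) and Rhag (1.82 ± 0.427). No gene differed from the next in this order by more than the sum of their SDs. In HE2 Klf1 was again first with 10.3 ± 1.75 CPM per kb, and Rhag was last with 0.800 ± 0.287. In HE1 Slc4a1 (2.25 ± 0.764) and Klf1 (2.14 ± 0.382) did not differ beyond their spread, and the other 5 genes lay between 0.320 and 0.639.

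The libraries of a stage differed in the same direction for most members. Replicate 2 was lower than replicate 1 for 7 of 7 genes in HE1, for 6 of 7 in HE2 and for 7 of 7 in HP, whereas 51.4%, 51.8% and 52.2% of all tested genes were lower. The exception was Klf1 in HE2, with a ratio of 1.27. In HP the ratio of replicate 2 to replicate 1 lay between 0.233 for Slc4a1 and 0.932 for Epb42. The markers of other cells did not all follow. The summed endothelial markers in replicates 1 and 2 were 7099 and 4648 CPM in HE1, 4672 and 2751 CPM in HE2, and 1424 and 1458 CPM in HP. The summed megakaryocyte markers were 835 and 898 CPM in HE1, 2327 and 2608 CPM in HE2, and 2956 and 2251 CPM in HP, and the summed myeloid markers were 28.3 and 36.3, 158 and 291, and 473 and 290 CPM. In HE2 the library with the lower sum of the erythroid members had the higher sum of the myeloid markers. The megakaryocyte markers did not move together between these libraries, as 7 of 16 were lower in replicate 2, and without Itgb3 they summed to 1263 and 1203 CPM. From HE1 to HP, 12 of 15 tested megakaryocyte markers rose and 1 fell, and 9 of 13 myeloid markers rose and 0 fell. Over the same step 15 of 16 endothelial markers fell and 0 rose, and 8 of 8 ES cell markers fell. Of all tested genes, 5.35% were called higher and 11.2% lower. The megakaryocyte marker that fell was Vwf (-1.32 on the log2 scale), with an adjusted p just under the threshold (0.0468, edgeR). By an alternative chosen after seeing the data, 1 of 8 ES cell markers was called lower without HE1 replicate 2 and also without either HP replicate, and 7 megakaryocyte markers were called higher without HE1 replicate 2 and 5 without HP replicate 1. Of the 16 megakaryocyte markers, 11 had a mean of 1 CPM or more in HE1 and 4 had 3 counts or fewer in both HE1 libraries, among them Pf4 (1 and 0 counts) and Ppbp (0 and 0 counts). The myeloid marker Ctsg had 0 counts in each HE1 and HE2 library. The part of these markers in the results was not tested.

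**Figure D3:**
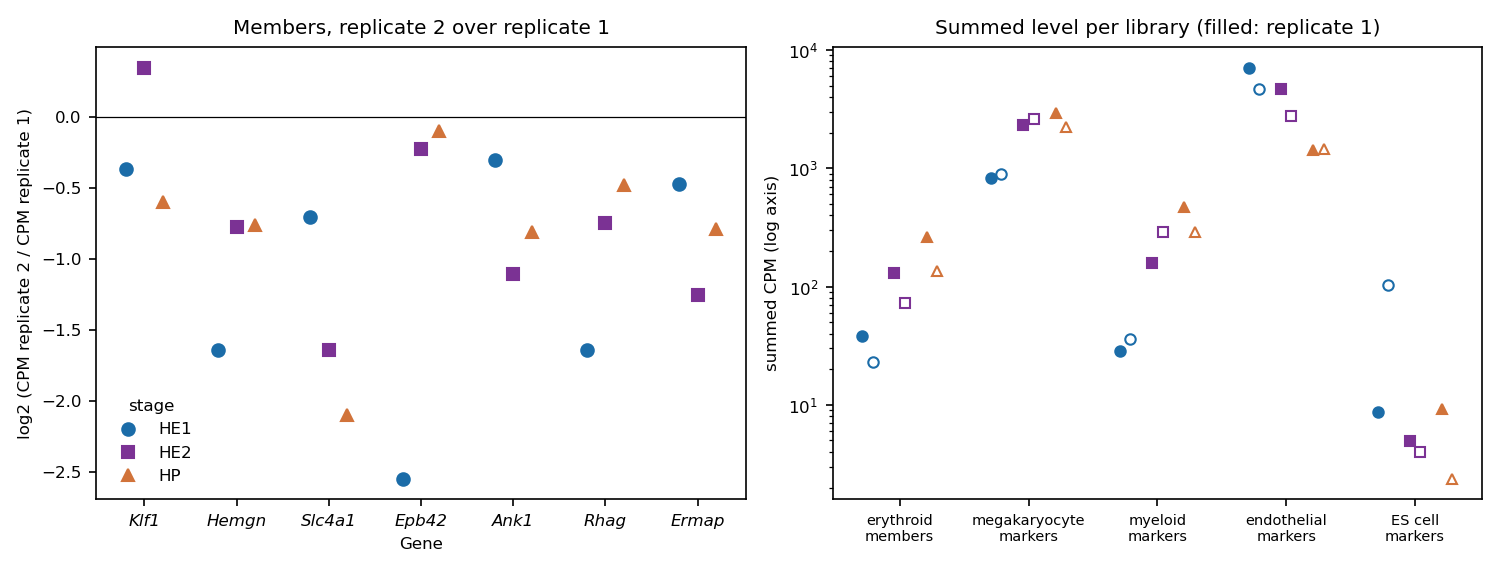
Left, log2 ratio of CPM in replicate 2 over replicate 1 for each of the 7 genes in HE1, HE2 and HP. Right, summed CPM on a log axis of the 7 genes and of 4 marker lists in each library, with filled symbols for replicate 1. Of the ratios, only that of Klf1 in HE2 (1.27) is above the line, and the ES cell markers of HE1 replicate 2 sit at 103 CPM.

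The likeness of the 7 genes in course was measured for each pair. Over the 21 pairs of members, Pearson's r of log2 CPM over 10 libraries lay between 0.713 (Slc4a1 and Epb42) and 0.993 (Hemgn and Rhag), with a median of 0.948. The 6 libraries of HE1, HE2 and HP alone gave 0.724 to 0.995 with a median of 0.920. The points share the stages and the sort, so r describes the course only. The genes with the course most like Klf1 were Ncf4 (r = 0.993), P2ry14 (0.992) and Ccl9 (0.991). Spef1 was the closest to Hemgn (0.989). For Rhag the closest were Ssx2ip (0.994), Fkbp15 (0.993) and the adult globin gene Hbb-bs (0.992). Ssx2ip had means of 33.5 CPM in ES and 96.2 CPM in HP, and Fkbp15 had 38.6 and 89.5 CPM. Uros, an enzyme of haem synthesis, was the closest to Ermap (0.993), followed by Hbb-bs (0.993). For Slc4a1 the closest were Arhgef1, Vcl and Plau, at 0.974 to 0.975, and for Epb42 they included F10 (0.992). Pearson's r does not measure the size of a change. Slc4a1 had means of 11.0 CPM in HE1 and 50.8 CPM in HP. Those of Vcl were 411 and 512 CPM, of Arhgef1 176 and 209 CPM, and of Plau 13.2 and 17.9 CPM.

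The nearest gene on each side of each member on the chromosome was also followed, among tested genes that are in the authors' matrix. Their distances ran from 0.987 kb (Ccndbp1 from Epb42) to 492 kb (Crisp1 from Rhag), so not all are close by. Of 14 such neighbours, 1 was called higher in HP than in HE1 and 1 lower, shares near the 5.35% and 11.2% of all tested genes, and their median was 0.50 against -0.02. The former was Crisp1, at 0 CPM in HE1 and a mean of 0.212 CPM in HP, which was not called when any 1 library of HE1 or HP was left out (adjusted p = 0.0558 to 0.199, edgeR). The latter was Rundc3a, with a log2 fold change of -2.32, which was not called without HP replicate 1 (-1.97, adjusted p = 0.105). These values without a library were chosen after seeing the data. Klf1 had Gcdh and Dnase2a beside it, with log2 fold changes of 0.74 and 0.75.

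Of 25 other genes of the red cell membrane and its skeleton, 10 rose and 1 fell from HE1 to HP by the same call, and 14 were not called. Of all tested genes, 11.2% were called lower. The median was 0.59 against -0.02 for all tested genes, below the 2.66 of the 7 members. Among those that rose were Icam4, a red cell adhesion protein (3.62 ± 0.87 on the log2 scale, adjusted p = 0.0136), and Kel, a blood group protease (3.18 ± 0.58, adjusted p = 0.00336). Icam4 had 9 and 0 counts in HE1, and its change was 2.53 without HE1 replicate 2 and 9.32 without HE1 replicate 1, the latter against the library with 0 counts and so no measure of size. It was not called without HP replicate 1 (3.43, adjusted p = 0.0623). Kel had 1.60 and 0.957 CPM in HE1, 7.22 and 1.87 CPM in HE2, and 10.6 and 12.5 CPM in HP, and the libraries of HE1 and HP did not overlap. Aqp1, a water channel that endothelial cells also make, fell by 4.04 on the log2 scale (adjusted p = 0.0011), from 54.8 and 38.2 CPM in HE1 to 1.60 and 4.13 CPM in HP, and the change was -4.84 without HP replicate 2. The highest of the list per kilobase in HP were Bsg, Slc2a1 and Tpm1, which many cell types express, and none of these was called in the comparison, although Tpm1 was called lower without HE1 replicate 1 (-1.31, adjusted p = 0.00426, edgeR). From HE1 to HE2, 7 of 25 genes were called higher and 1 lower, against 3.26% and 5.39% of all tested genes.

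Of 22 erythroid regulators other than Klf1, 9 rose and 2 fell from HE1 to HP, with a median of 0.76. Of all tested genes, 5.35% were called higher and 11.2% lower, so the 2 that fell are near the general share. Nfe2 rose by 4.55 ± 0.47, Gata1 by 4.17 ± 0.38, Myb by 4.13 ± 0.46 and Gfi1b by 3.94 ± 0.38 on the log2 scale. Gata1, the partner of KLF1, had 5.55 and 2.41 CPM in HE1, 24.5 and 38.5 CPM in HE2, and 75.8 and 65.7 CPM in HP. Unlike 6 of the 7 members in HE2, and like Klf1, Gata1 was higher in HE2 replicate 2 than in replicate 1. Klf3, a repressor of the same zinc finger family as Klf1, fell by 1.29 on the log2 scale (adjusted p = 0.00209), and Runx1t1 fell by 1.36 (adjusted p = 0.00744). From HE1 to HE2, 8 of 22 regulators were called higher and 0 lower, against 3.26% and 5.39% of all tested genes. From HE1 to HP the count of higher regulators stayed at 9 or 10 whichever HE1 or HP library was left out. The changes of Nfe2, Gata1 and Myb were 5.41, 4.90 and 5.21 without HE1 replicate 1, that of Myb was 3.52 without HE1 replicate 2, and Runx1t1 was not called without HP replicate 1 (adjusted p = 0.0760, edgeR).

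**Figure D4:**
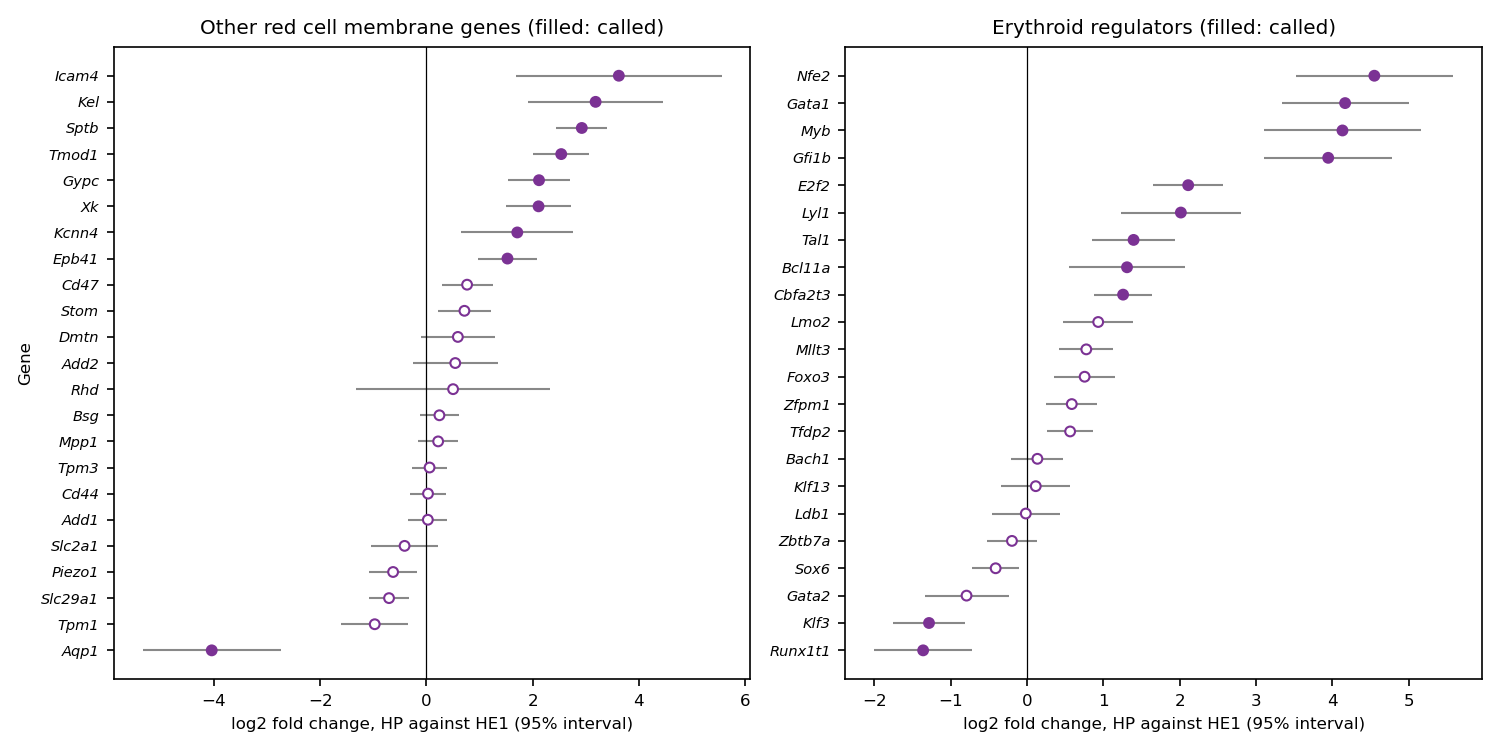
Log2 fold change from HE1 to HP with its 95% interval for 23 of the 25 other red cell membrane genes (left) and 22 erythroid regulators (right), with filled points for called genes. Icam4 (3.62) and Nfe2 (4.55) lead, Aqp1 (-4.04) is the called membrane gene that is lower in HP, and many genes of both lists lie near 0.

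The genes that load the red cell, which are the globins, haem enzymes, iron carriers and late erythroid genes, were followed as 24 tested genes of a list of 25. In HP against HE1, 17 of 24 were called higher and 0 lower, against 5.35% and 11.2% of all tested genes, with a median of 2.32. The list also holds Gfi1b, a transcription factor that is 1 of the 22 regulators above and is counted in both lists. Trim58 (5.71 ± 0.77 on the log2 scale), Hba-a2 (5.27 ± 0.66) and the globin gene Hbb-bh1 (3.33 ± 0.34) had, with Gfi1b, the 4 largest increases of the list. Trim58 had 7 and 2 counts in HE1, and its change was 7.06 without HE1 replicate 1 and 4.94 without HE1 replicate 2. Hba-a2 gave 4.67 and 6.66 under the same settings, and Hbb-bh1 gave 3.96 and 2.90. The embryonic globin genes Hbb-bh1, Hba-x and Hbb-y were the highest per kilobase in HP, against means of 23.0 CPM per kb for Klf1 and 10.4 for Slc4a1. In HP replicates 1 and 2, Hbb-bh1 had 4275 and 2533 CPM per kb, Hba-x 1618 and 685, and Hbb-y 673 and 187. Globin genes have near-identical copies, and counts of Hba-a1 with Hba-a2 and of Hbb-bs with Hbb-bt may be split between them and are uncertain. From HE1 to HE2, 11 of 24 were called higher and 0 lower, against 3.26% and 5.39% of all tested genes.

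Genes related to the 7 members were followed for comparison, most of them used in other tissues. The list also holds Rhd, a red cell Rh protein that is counted among the 25 membrane genes above as well and was not called. Of 15 tested paralogs, 3 rose and 3 fell from HE1 to HP, with a median of -0.33. Of all tested genes, 5.35% were called higher and 11.2% lower. Ank3 rose by 1.99 ± 0.19 on the log2 scale whereas Ank2 fell by 1.38, and both belong to the family of Ank1. Klf2 and Klf4, factors of the Klf1 family that endothelial cells use, fell by 2.16 and 2.28. The change of Klf2 was -1.45 without HE1 replicate 1. Without HP replicate 1, Klf2 (-1.99, adjusted p = 0.0644, edgeR) and Ank2 (-1.21, adjusted p = 0.0557) were not called. Btn1a1, a butyrophilin like Ermap, rose by 3.01 ± 0.45 and Tgm1, a transglutaminase related to Epb42, by 2.21 ± 0.38. The bicarbonate transporter genes Slc4a2, Slc4a3, Slc4a4 and Slc4a7, of the family of Slc4a1, were not called.

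Klf1 and Hemgn are also in the study's list of genes with an enhancer that is primed in haemogenic endothelium before the gene is switched on in HP. That list was chosen by the authors on these libraries, so the rise of both genes from HE1 to HP is not independent evidence of its direction. The region listed for Klf1 is chr8:84903017-84903418, whose midpoint lies in a coding exon of Klf1, 1.289 kb from its annotated start. The region listed for Hemgn is chr4:46417503-46417903, which lies in no annotated gene, with its midpoint 4.197 kb before the start of the gene in the count tables. The RefSeq start used for the promoter search lies 9.323 kb further into the gene, so the midpoint is 13.52 kb before that start. In HE1, where such a gene would be called not expressed, the authors' threshold of 9 CPM was above every library of Klf1 (3.70 and 2.87 CPM) and of Hemgn (2.27 and 0.726 CPM), although both lay well over the floor of 3 counts.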

How the data were processed

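Nuclear RNA-seq of 10 libraries from 5 stages was analysed. The authors removed ribosomal reads, trimmed with Trimmomatic, aligned with Hisat2 (v2.2.1) to the mm10 genome and deposited raw counts per gene from featureCounts (v2.0.1), counted by strand on exons of Ensembl genes. They also deposited a matrix of normalised mean expression scores per stage, which was used to select the genes and to check their levels.

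Counts were analysed in edgeR (v4.0.16; R v4.3.3) after filterByExpr and TMM scaling, with a quasi-likelihood model of stage fitted to all 10 libraries (5 residual degrees of freedom). Stages were compared by quasi-likelihood F tests, with p-values adjusted by Benjamini-Hochberg over 22596 genes, and a call needed an adjusted p under 0.05 with a change of 2-fold or more. Comparisons share libraries and are not independent. The SE of a log2 fold change is its absolute size divided by the square root of its F value. The 95% intervals of log2 fold changes use this SE and a t distribution. Both are approximate where a stage has few counts. The study describes the libraries of a stage as independent. The replicate numbers did not pair libraries across stages (correlation of deviations -0.316 to 0.213). Libraries of a stage differed by more than counting error, and the model was tested on simulated data. In a simulation of HP against HE1 over 21471 genes, 200 were given a log2 fold change of 2 in either direction. Of these edgeR found 89.0%, and it made 13 false calls. Apart from these changes, the simulated libraries shared a common mean per gene and the fitted trend of the spread. No simulated library stood apart, so the simulation cannot show how calls hold where libraries differ as they do here. Log2 CPM for correlations used a prior count of 2.

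limma-voom (v3.58.1), DESeq2 (v1.42.0), total count scaling, no filter, fewer libraries, a replicate block, a 4-fold threshold and leaving out each library were tried. A library left alone in its stage was assumed to vary like the others. The 7 genes and all lists were chosen with earlier results of these data known. From each list, the 4 called genes with the largest change from HE1 to HP were named. Called genes of the opposite direction and the 3 highest per kilobase in HP were named as well. Hbb-bs, Uros, Ncf4, P2ry14, Ccl9, Arhgef1, Vcl, Plau, F10, Spef1, Ssx2ip and Fkbp15 came from the 3 genes most alike each member. Some genes that this rule selects are not reported here. Promoter sequences were from RefSeq (GRCm38.p6), with 5 of 7 genes matched.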

Additional observations from a re-analysis of the deposited data

How the results depend on the processing

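The calls of the 7 genes depended on the filter on low counts, the tool and single libraries. From HE1 to HE2, 5 members were called with DESeq2 and 6 with no filter on low counts, against 3 in the main analysis, and between HE2 and HP these were 1 and 2 against 0. With 1 library left out at a time, 5 to 7 members were called from HB to HE1, 2 to 5 from HE1 to HE2, 4 to 7 from HE1 to HP, 0 from HE2 to HP, and 0 to 1 in the difference of the steps. With 1 library left out, the log2 fold change ranged from -0.35 (without HE1 replicate 1) to 2.24 for Epb42 from HB to HE1 and from -0.49 (without HP replicate 1) to 1.96 for Slc4a1 from HE2 to HP. The difference of the steps turned without HE2 replicate 1 for Hemgn (-0.13), Slc4a1 (-1.70), Ank1 (-0.39), Rhag (-0.67) and Ermap (-0.79), without HP replicate 2 for Slc4a1 (-0.32) and Rhag (-0.05), and without HE1 replicate 2 for Rhag (-0.47), and the highest values were 1.77, 1.79, 1.81, 1.18 and 1.71 for these 5 genes in the first order. The cause was not tested.

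For the other lists, a threshold of 4-fold gave 7 membrane genes and 2 regulators higher from HB to HE1 (12 and 6 at 2-fold), and 2 membrane genes, 5 regulators and 6 genes of the globin and haem list from HE1 to HE2 (7, 8 and 11). Between HE2 and HP, where the main analysis called 0 in each list, DESeq2 called 1, 1 and 2, no filter called 2, 1 and 2, and limma-voom called 1 of the last list. In the difference of the steps, DESeq2 called 4 regulators and 1 globin or haem gene, and no filter called 2 membrane genes, 6 regulators and 5 globin or haem genes. With 1 library left out, the membrane list ranged from 8 to 13, 5 to 10, 8 to 10, 0 and 0 to 3 over the 5 comparisons in the same order, the regulators from 4 to 8, 5 to 10, 9 to 10, 0 and 0 to 4, and the globin and haem list from 7 to 8, 6 to 14, 15 to 20, 0 to 1 and 0 to 3. The replicate block gave 6, 4, 7, 0 and 0 members, and with this pairing Hemgn was called from HE1 to HE2 (adjusted p = 0.0345, edgeR), with no other member call changed. Over all genes, 0 were called between HE2 and HP in the main analysis, 62 with limma-voom, 300 with DESeq2, 534 with no filter and 525 without HE2 replicate 2 (0 without each of the other HE2 and HP libraries), and at an unadjusted p under 0.05 there were 670 higher and 1113 lower. From HE1 to HE2, 1954 genes were called in all, 3818 with no filter, 929 with only the libraries compared, 4295 and 628 without HE1 replicates 1 and 2, and 3207 and 422 without HE2 replicates 1 and 2. In the difference of the steps, 13 were called, 208 with DESeq2, 729 with no filter, 279 and 2 without HE1 replicates 1 and 2, 301 and 1 without HE2 replicates 1 and 2, 0 without either HP replicate, 3 with the replicate block, 7 with only the libraries compared, and 6 with total counts or without the 20 genes with the most counts in library sizes. The 4722 genes called from HB to HE1 became 2803 without HB replicate 2, and the 3735 from HE1 to HP became 1905 without HP replicate 1. Depth limits Hemgn and Rhag in ES and HB, where each library held 4 counts or fewer.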
